A study of Mus musculus with 4 samples.

Results

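Transcripts of 9 genes of the PI3K, Akt and mTOR pathway were followed in type 1 innate lymphoid cells (ILC1s) of the mouse liver. The genes are Pik3cd, Pik3r1, Akt1, Akt2, Tsc1, Tsc2, Mtor, Rptor and Rictor. They were taken by symbol from a table of 18804 genes, and all 9 were found there. The cells came from mice labelled as knockout for Cd200r (2 libraries, replicates 1 and 2) and from WT mice (2 libraries, replicates 1 and 3), which is the comparison the study was built on. Both groups were labelled as liver cells at homeostasis from mice 5 to 8 weeks old. The sources used here give neither the exons that the allele lacks, nor the sorting gates, nor the number of mice behind a library. P-values thus rest on the variation between libraries alone, and this may be technical.

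Class I PI3Ks are lipid kinases made of a catalytic and a regulatory subunit. They are recruited to activated receptors and make the membrane lipid PIP3, to which Akt binds. Akt inhibits the TSC complex, which releases the small GTPase Rheb to switch on the kinase mTOR in the complex mTORC1. A separate complex, mTORC2, phosphorylates Akt itself. In NK cells and their relatives this pathway is known for its part in growth, metabolism and cytotoxic function downstream of cytokine and activating receptors. CD200R is an inhibitory receptor that acts through Dok adaptors and RasGAP. The kinases named here are controlled largely by phosphorylation, which RNA values do not show.

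Depth was not stated, and an approximate value inferred from low FPKM values was alike in all libraries, at 38800000 to 41100000 counted reads. Cd200r1, the targeted gene, measured 111 and 104 FPKM in knockout libraries, against 162 and 173 FPKM in WT libraries. Its log2 fold change was −0.64 (SE 0.09, limma adjusted p = 0.00451), so the summed transcript was lower and not absent. Of 13 ILC1 markers, 12 were in the table and Zfp683 was not. Ncr1 measured 1486 to 1748 FPKM and Cxcr6 948 to 1067 FPKM over the 4 libraries. Summed ILC1 markers were 6601 and 6463 FPKM in knockout, against 7435 and 7241 in WT. Of the 12, 8 were below 0 in log2 fold change and 4 above. An unadjusted p below 0.05 was found for 6 of them, and for 15.5% of all genes tested. Cd200r1 fell and Tmem176b rose (0.45, adjusted p = 0.0365). Markers of several other cells and mitochondrial transcripts moved with the genotype, where 2.4% of all genes tested rose and 0.939% fell. Summed FPKM of conventional NK markers was 307 and 659 in knockout libraries, against 113 and 110 in WT libraries, and 9 of 11 tested markers rose. For macrophage markers the sums were 641 and 954 in knockout, against 246 and 225 in WT, and 7 of 10 rose. Erythroid markers summed to 12483 and 14027 in knockout, against 24711 and 26812 in WT, and 7 of 7 fell. No T cell marker of 6 passed the test, though 3 had an unadjusted p below 0.05. In log2 fold change 3 were above 0, with Cd3e closest to passing (0.69, adjusted p = 0.0518). The other 3 were below 0, among them Cd3g, the most abundant (−0.19, adjusted p = 0.242). Hepatocyte markers summed to 251 and 269 FPKM in knockout, against 149 and 212 in WT. All 6 were above 0 in log2 fold change and 1, Fgb, rose (0.89, adjusted p = 0.00703). Of 3 neutrophil markers tested, Mmp9 fell (−1.09, limma adjusted p = 0.00162), and the other 2 were above 0 and did not pass. All 4 B cell markers tested were below 0, and none passed. The 1 endothelial marker tested, Pecam1, had −0.34 (SE 0.16) and did not pass. Mitochondrially encoded mRNAs took 2.51% and 2.89% of the summed FPKM in knockout, against 1.30% and 1.64% in WT. No list of markers had a member at 0 in all libraries. The part of these cells and of RNA quality in the values below was not tested. In bulk libraries such as these, fewer cells of a type and less RNA per cell cannot be told apart.

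Levels of the 9 transcripts spanned almost 2 orders of magnitude. FPKM is scaled to gene length and library size, so levels of different genes were set against each other. The gene lengths behind the deposited values are not stated, and the part of transcript length or amplification in the order below was not tested. Averaged over the 4 libraries, Akt1 was highest at 70.9 ± 5.47 FPKM (SD, n = 4), followed by Pik3cd at 49.2 ± 11.6. Pik3r1 averaged 13.3 ± 0.756 FPKM and Akt2 12.3 ± 1.16. Rictor (7.60 ± 1.64), Tsc2 (4.56 ± 1.14), Tsc1 (2.56 ± 0.652), Rptor (1.54 ± 0.317) and Mtor (0.824 ± 0.264) followed in this order. Akt1 lay above 87.2% and Pik3cd above 82.2% of the 9476 genes that averaged 1 FPKM or more over the libraries, whereas Rptor lay above 8.10% of them. Mtor was below that filter and was not tested. Akt1 and Pik3cd, Pik3cd and Pik3r1, and Akt2 and Rictor did not overlap over the libraries. The other neighbours in the order did overlap, although in each single library Rictor exceeded Tsc2, Tsc2 exceeded Tsc1, Tsc1 exceeded Rptor and Rptor exceeded Mtor. Pik3r1 exceeded Akt2 in 3 of 4 libraries. At the approximate depth and with GENCODE lengths, a low FPKM here did not mean few reads, because these transcripts are long. The libraries were amplified, so a read number is not a number of molecules. With a transcript of 8.56 kb in GENCODE, the Mtor values correspond to roughly 282 and 270 reads in knockout libraries, against 394 and 175 in WT libraries.

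**Figure D1:**
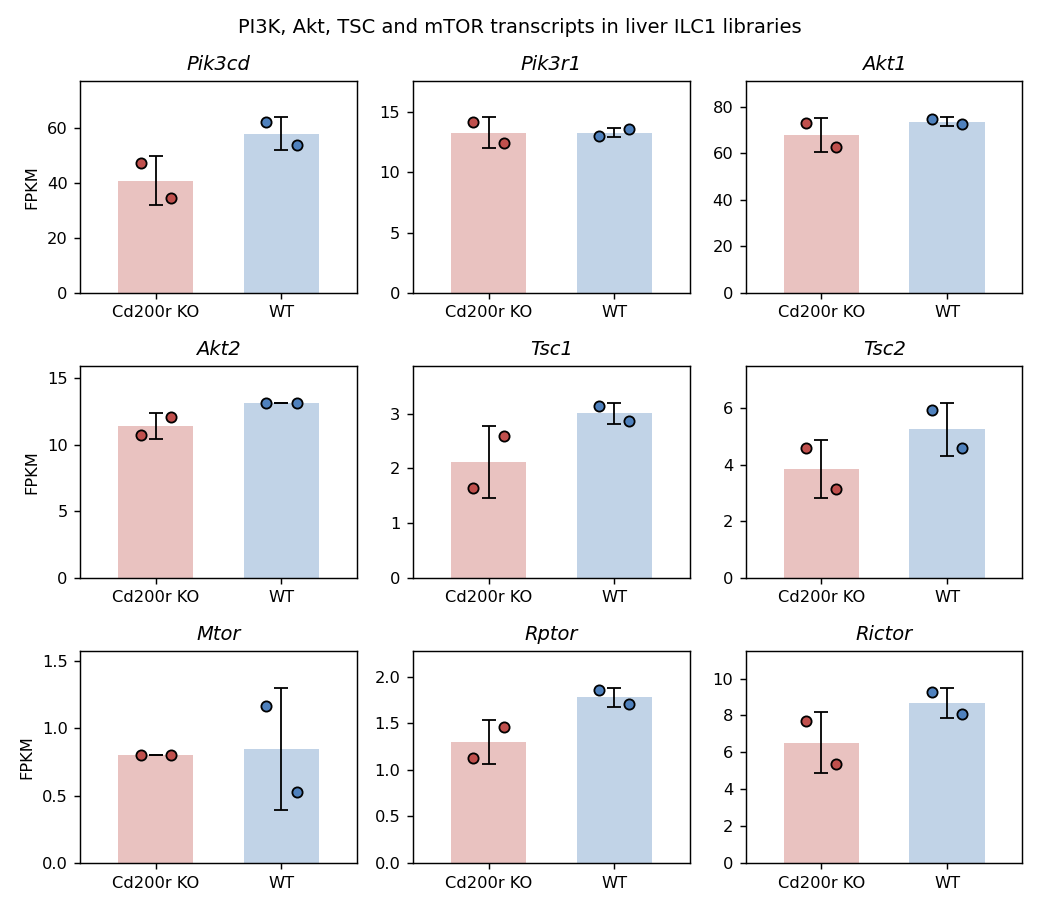
FPKM of the 9 genes in Cd200r knockout (red, left) and WT (blue, right) libraries; each point is a library, with replicate 1 on the left of each pair, bars are group means and error bars the SD of 2 libraries. Knockout and WT points do not overlap for Pik3cd, Akt2, Tsc1, Tsc2, Rptor and Rictor, and overlap for Pik3r1, Akt1 and Mtor; each panel has its own axis from 0.

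None of the 8 genes tested passed an adjusted p of 0.05 in limma across all genes, and 1 of them, Pik3cd, had an unadjusted p below 0.05. Over all 9476 genes tested, 3.33% passed the adjusted threshold (2.4% higher and 0.939% lower in knockout) and 15.5% had an unadjusted p below 0.05. All 8 had a log2 fold change below 0, as had 49.5% of all genes, and the untested Mtor did so too. Their median was −0.33, against 0.00 for all genes tested. In 6 of the 8, both knockout libraries lay below both WT libraries, a pattern found in 21.7% of all genes tested. In none did both lie above, as in 24.3% of all genes, so 46% of all genes had groups apart in either direction.

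Pik3cd encodes p110δ, the catalytic subunit that prevails in leukocytes and pairs with the regulatory subunit encoded by Pik3r1. It lies on chromosome 4, 149649168 to 149702566 (GRCm38, minus strand). It measured 47.0 and 34.4 FPKM in knockout libraries, against 61.9 and 53.6 FPKM in WT libraries. Both knockout libraries were below both WT libraries, and the knockout replicates differed from each other by more than the nearest knockout and WT libraries did. The log2 fold change was −0.51 (SE 0.15, 95% interval −0.84 to −0.18, adjusted p = 0.111), a ratio of group means of 0.704. Without knockout replicate 1 it passed (−0.73, adjusted p = 0.00529), and without knockout replicate 2 it was −0.29 (adjusted p = 0.359), so the size rests largely on replicate 2. Such fits hold 1 knockout library, so a gene's own spread comes from the WT pair alone and the lone library is assumed to vary like it. Where a WT library is left out, the knockout pair gives it. Calls made or lost in such fits, here and below, carry that assumption.

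Pik3r1, on chromosome 13 from 101680761 to 101768217 (minus strand), encodes p85α and shorter forms that stabilise the catalytic subunits. It measured 14.2 and 12.4 FPKM in knockout libraries, against 13.1 and 13.6 FPKM in WT libraries. The knockout values lay on either side of the WT values. The log2 fold change was −0.00 (SE 0.15), with an interval of −0.34 to 0.34, so changes beyond about 1.26-fold in either direction are outside it. The ratio of Pik3r1 to Pik3cd was 0.302 and 0.361 in knockout libraries, against 0.211 and 0.253 in WT libraries. The groups did not overlap, and the exact permutation p of 0.333 is the smallest that 2 against 2 libraries can give.

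The subunits paired with these genes showed which paralogs the cells transcribed. Pik3cd made up 83.4% and 79.7% of the summed FPKM of the 4 class I catalytic subunits in knockout libraries, against 84.7% and 85.1% in WT libraries. Pik3cg, which encodes p110γ of G protein-coupled receptor signalling, measured 4.25 and 4.77 FPKM in knockout, against 6.04 and 5.87 FPKM in WT (−0.34, SE 0.19, adjusted p = 0.444). Pik3ca (log2 fold change 0.15, SE 0.23) and Pik3cb (−0.04, SE 0.24), which encode the broadly expressed p110α and p110β, averaged 2.53 and 1.90 FPKM over all libraries. Among regulatory subunits, Pik3r2 (p85β) measured 4.68 and 6.23 FPKM in knockout, against 8.74 and 6.64 FPKM in WT (−0.43, SE 0.21, adjusted p = 0.366). Pik3r5, the p101 partner of p110γ, had −0.18 (SE 0.18), while Pik3r3 and Pik3r6 were below the filter at means of 0.119 and 0.691 FPKM. No class I subunit passed the test among 7 tested of 9. An unadjusted p below 0.05 was found for 1, and for 15.5% of all genes.

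**Figure D2:**
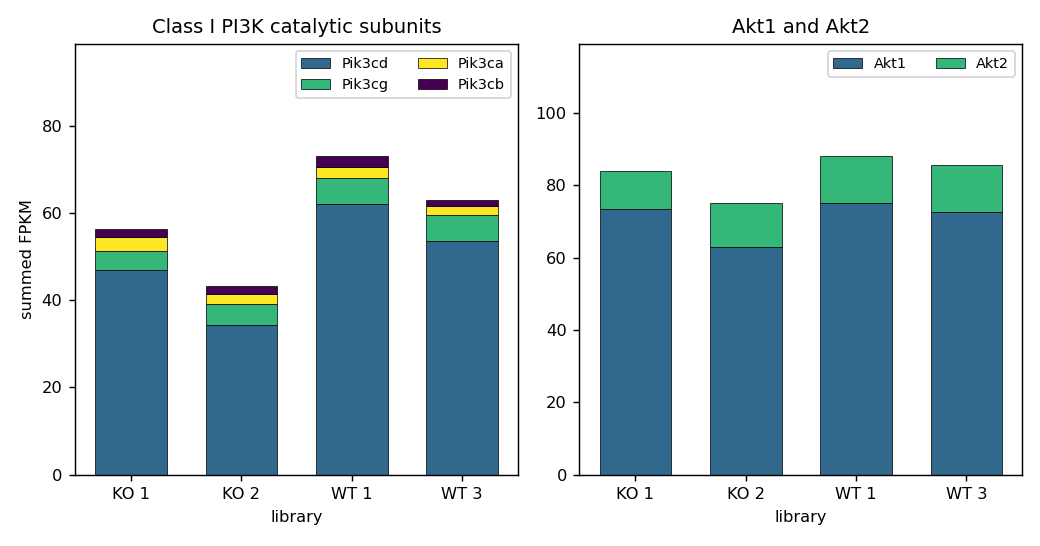
Summed FPKM of the 4 class I PI3K catalytic subunits (left) and of Akt1 and Akt2 (right) in each library, knockout left of WT. Pik3cd fills 79.7% to 85.1% of the left bars, and Akt2 stands at 0.146 to 0.192 of the height of Akt1 on the right.

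Akt1 and Akt2 encode serine/threonine kinases that relay PIP3 signals, Akt2 being best known for insulin-driven glucose uptake. Akt1 (chromosome 12, 112653821 to 112674884, minus strand) measured 73.3 and 62.9 FPKM in knockout libraries, against 75.0 and 72.5 FPKM in WT libraries. Knockout replicate 1 fell between the WT libraries and replicate 2 below them. Its log2 fold change of −0.12 (SE 0.11, adjusted p = 0.671) had an interval of −0.36 to 0.12. Akt2 (chromosome 7, 27591552 to 27640826, plus strand) measured 10.7 and 12.1 FPKM in knockout, against 13.1 and 13.2 FPKM in WT. Both knockout values were lower, and the WT values nearly coincided. The log2 fold change was −0.19 (SE 0.16, interval −0.54 to 0.15, adjusted p = 0.613). The Akt2 to Akt1 ratio was 0.146 and 0.192 in knockout, against 0.175 and 0.181 in WT (exact permutation p = 1).

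Tsc1 and Tsc2 encode hamartin and tuberin, the partners of the complex that holds Rheb, and with it mTORC1, in check. Tsc1 (chromosome 2, 28640993 to 28691172, plus strand) measured 1.65 and 2.59 FPKM in knockout libraries, against 3.15 and 2.87 FPKM in WT libraries. Tsc2 (chromosome 17, 24595816 to 24632676, minus strand) measured 4.58 and 3.13 FPKM in knockout, against 5.92 and 4.59 FPKM in WT. Neither gene's groups overlapped, but for Tsc1 the lower knockout library was replicate 1 and for Tsc2 it was replicate 2. The log2 fold changes were −0.38 (SE 0.23, adjusted p = 0.478) for Tsc1 and −0.37 (SE 0.23, adjusted p = 0.474) for Tsc2. Their ratio accordingly scattered, at 0.360 and 0.825 in knockout and 0.532 and 0.625 in WT (exact permutation p = 1). Tsc2 shares 693 exonic bases with Pkd1 on the opposite strand, 7.20% of its exonic bases, and in an unstranded library reads from them cannot be told apart. Pkd1 averaged 1.06 FPKM.

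Mtor, Rptor and Rictor encode the kinase, the mTORC1 scaffold raptor and the mTORC2 scaffold rictor. Mtor (chromosome 4, 148448582 to 148557685, plus strand) measured 0.800 and 0.801 FPKM in knockout libraries, against 1.17 and 0.525 FPKM in WT libraries. The knockout libraries were alike and lay between the WT libraries, which differed more from each other than from the knockout. Its difference was −0.01 on the log2 scale, with no test, and it turned to 0.24 without WT replicate 1 and to −0.27 without WT replicate 3. Rptor (chromosome 11, 119602905 to 119899591, plus strand) measured 1.13 and 1.47 FPKM in knockout, against 1.85 and 1.71 FPKM in WT. The groups did not overlap, and the log2 fold change was −0.28 (SE 0.22, interval −0.77 to 0.21, adjusted p = 0.608). Rictor (chromosome 15, 6708349 to 6800401, plus strand) measured 7.70 and 5.35 FPKM in knockout, against 9.26 and 8.08 FPKM in WT. Both knockout libraries were below WT, with a log2 fold change of −0.38 (SE 0.20, interval −0.83 to 0.07, adjusted p = 0.42). Rictor exceeded Rptor in every library, by 6.81-fold and 3.65-fold in knockout and by 5.0-fold and 4.73-fold in WT (exact permutation p = 1 for the ratio).

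**Figure D3:**
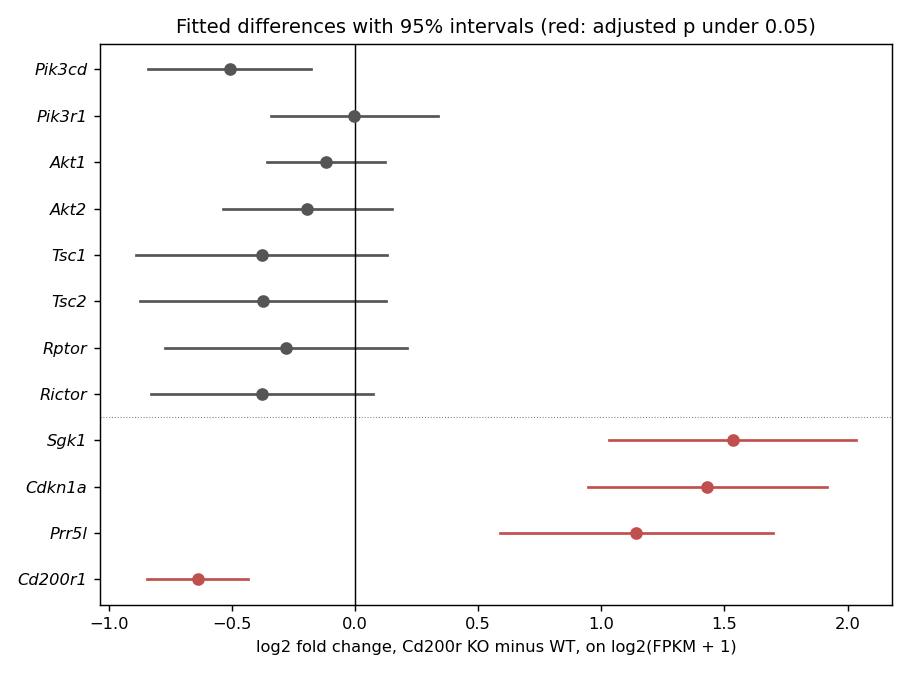
Log2 fold change (log2(FPKM + 1) in Cd200r knockout minus that in WT) with 95% intervals from limma for the 8 tested genes, above the dotted line, and for Sgk1, Cdkn1a, Prr5l and Cd200r1 below it. Of the 8 intervals, only that of Pik3cd, from −0.84 to −0.18, leaves out 0, and its adjusted p is 0.111; the 4 genes drawn in red passed the test.

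Transcript length moved with the difference between the genotypes, and also with differences between replicates of a genotype. Among 1630 tested genes with a transcript under 1.5 kb, the median log2 fold change was 0.09 and 31.4% were below 0. Among 1371 genes over 5 kb, the median was −0.09 and 67.8% were below 0. Between replicates, the median of knockout replicate 2 minus 1 was 0.087 under 1.5 kb and −0.049 over 5 kb, and that of WT replicate 3 minus 1 was −0.041 and −0.14, so over 5 kb the WT replicates differed by more than the genotypes. In that class both knockout libraries were lower than both WT libraries for 29.3% of genes. The class holds Pik3r1, Rictor, Rptor, Tsc1 and Tsc2. Pik3cd (4.92 kb) and Akt2 (4.54 kb) fall between 3 and 5 kb, and Akt1 (2.69 kb) between 1.5 and 3 kb. Between 3 and 5 kb, 59.3% of genes were below 0, and both knockout libraries were lower than both WT libraries for 28.9%. A loess trend on transcript length was then subtracted from each library, an adjustment chosen after the data were seen. After it, 7 of the 8 genes remained below 0, as did 48.5% of all genes tested. The median of the 8 was −0.22, against 0.008 for all genes tested. Pik3cd then had −0.42 (SE 0.14, adjusted p = 0.158), Rictor −0.27 and Tsc1 −0.27. Pik3r1 had 0.10, and none of the 8 passed. Whether length accounts for the rest of the difference was not tested.

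**Figure D4:**
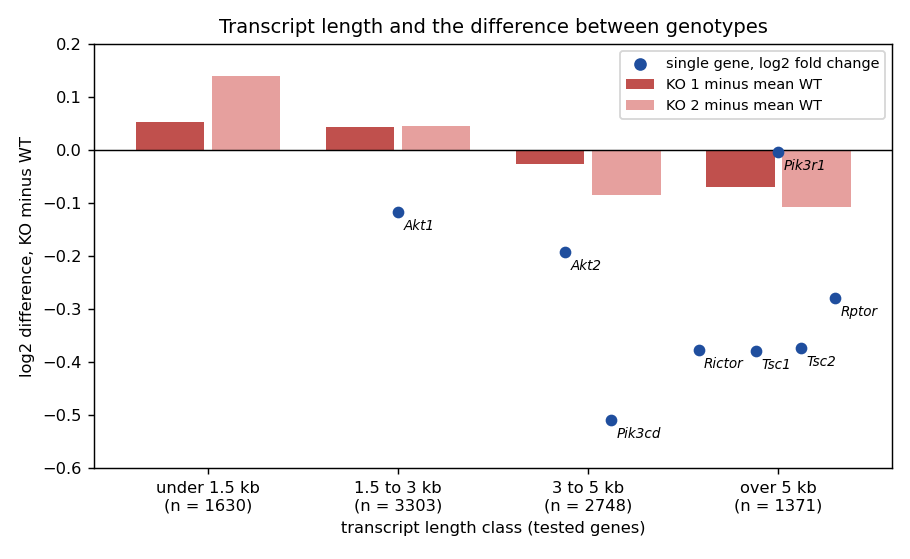
Median log2 difference from the mean of the WT libraries for knockout replicate 1 (dark bars) and 2 (light bars), in 4 classes of transcript length, with the log2 fold changes of the 8 tested genes as blue points placed within their class. The bars go from above 0 for transcripts under 1.5 kb to below 0 for those over 5 kb, and all points except Pik3r1 lie below the bars of their class.

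The rest of the pathway was read from lists chosen with earlier results of these data known. Of 126 further pathway genes, 99 were tested, 3 rose, none fell and 96 did not pass, which is 3.03% called against 3.33% of all genes. Their median log2 fold change was −0.03, and 14 of the 99 had an unadjusted p below 0.05, as had 15.5% of all genes. The risers were Sgk1, Cdkn1a and Prr5l.

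Sgk1 encodes a kinase related to Akt that is activated by mTORC2 and PDK1. It measured 5.99 and 8.95 FPKM in knockout libraries, against 1.88 and 1.88 FPKM in WT libraries, 3.97-fold higher by group means (log2 fold change 1.53, SE 0.23, adjusted p = 0.00478). Cdkn1a encodes the cell cycle inhibitor p21, an Akt substrate. It measured 6.44 and 6.55 FPKM in knockout, against 2.21 and 1.41 FPKM in WT (1.43, SE 0.22, adjusted p = 0.00577). Prr5l encodes protor-2, a subunit bound to mTORC2. It measured 1.78 and 2.95 FPKM in knockout, against 0.401 and 0.612 FPKM in WT (1.14, SE 0.25, adjusted p = 0.0339). Prr5l lost its call when knockout replicate 2 was left out (0.89, adjusted p = 0.206) and when WT replicate 1 was (1.04, adjusted p = 0.101), and its low level makes it sensitive to the pseudocount (0.42 with 5, 2.01 with 0.1). In the same libraries the summed markers of conventional NK cells and macrophages were higher in knockout, as given above, and their part in these rises was not tested.

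The other subunits of the mTOR complexes did not pass. Mapkap1 (Sin1, of mTORC2) had 0.14 (SE 0.14), Mlst8 (shared by both complexes) −0.01 (SE 0.23) and Prr5 (protor-1) −0.27 (SE 0.18). Telo2 (−0.38, SE 0.20) and Tti1 (0.35, SE 0.19), which encode cochaperone partners that help assemble the kinase, lay on opposite sides of 0. Deptor was near 0 at a mean of 0.0318 FPKM. Around the TSC complex, Tbc1d7, which encodes another of its subunits, measured 4.77 and 3.91 FPKM in knockout, against 6.89 and 5.26 FPKM in WT (−0.40, SE 0.21). Rheb measured 108 and 131 FPKM in knockout, against 97.7 and 102 FPKM in WT (0.25, SE 0.11, adjusted p = 0.311). Rheb transcripts were thus many times more abundant than those of Tsc1 or Tsc2 in both groups. None of the 5 genes of this list passed, and 1 had an unadjusted p below 0.05, as had 15.5% of all genes.

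Upstream, no lipid phosphatase or adaptor passed. Inpp4a, a phosphatase acting on a PI3K lipid product, had −0.66 (SE 0.28), and the protein phosphatase 2A subunits Ppp2r1a and Ppp2cb had −0.28 (SE 0.10) and 0.47 (SE 0.23). Among 10 tested adaptors, Hcst, which encodes the PI3K-binding adaptor DAP10 of NKG2D, was the most abundant, at 622 and 678 FPKM in knockout and 702 and 671 FPKM in WT (−0.08, SE 0.08). Pik3ap1 (−0.27, SE 0.12), Irs2 (0.29, SE 0.24) and Cd28 (0.72, SE 0.21, adjusted p = 0.111) did not pass. Cd28 did so with knockout replicate 2 as the lone knockout library (0.97, adjusted p = 0.0183, spread from WT only). Pdpk1, which encodes PDK1, the kinase that phosphorylates Akt in its activation loop, had −0.21 (SE 0.23). Of the class III PI3K complex of autophagy, Atg14 had −0.59 (SE 0.22, adjusted p = 0.208), Pik3r4 −0.52 (SE 0.25), Pik3c3 −0.16 (SE 0.19) and Uvrag −0.12 (SE 0.19). With that lone knockout library, and again with the spread from WT only, Atg14 (−0.86, adjusted p = 0.0317), Pik3r4 (−0.90, adjusted p = 0.035) and Ppp2r1a (−0.40, adjusted p = 0.0359) passed too.

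Nutrient and energy sensing genes gave no call. Of 29 genes of the Rag, Ragulator and GATOR machinery, 22 were tested. Over all genes tested, 15.5% had an unadjusted p below 0.05, and 4 of the 22 did. These were Sesn3 (0.64, SE 0.23), Wdr24 (−0.39, SE 0.16), Lamtor3 (0.24, SE 0.10) and Slc38a9 (−0.55, SE 0.23), which encode a sestrin, a GATOR2 subunit, a Ragulator subunit and a lysosomal arginine sensor. The list's median was 0.06. Among 8 tested genes of AMPK and LKB1, none had an unadjusted p below 0.05, and Stradb (0.31), Stk11 (−0.25), Prkab1 (−0.13) and Strada (−0.14) had the smallest p. Among 18 tested substrates and effectors of mTORC1, Eif4ebp1, the translation repressor, measured 39.3 and 35.5 FPKM in knockout, against 30.5 and 29.3 FPKM in WT (0.31, SE 0.12, adjusted p = 0.233). Rps6 (0.16, SE 0.09), Larp1 (−0.35, SE 0.22) and Eif4ebp3 (−0.33, SE 0.22) did not pass either. Of the other Akt substrates, Gsk3b (−0.41, SE 0.21) and Cdkn1b, the p27 inhibitor (−0.44, SE 0.23), did not pass, and Foxo1 measured 14.7 and 9.82 FPKM in knockout, against 13.3 and 12.3 FPKM in WT (−0.08, SE 0.19).

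**Figure D5:**
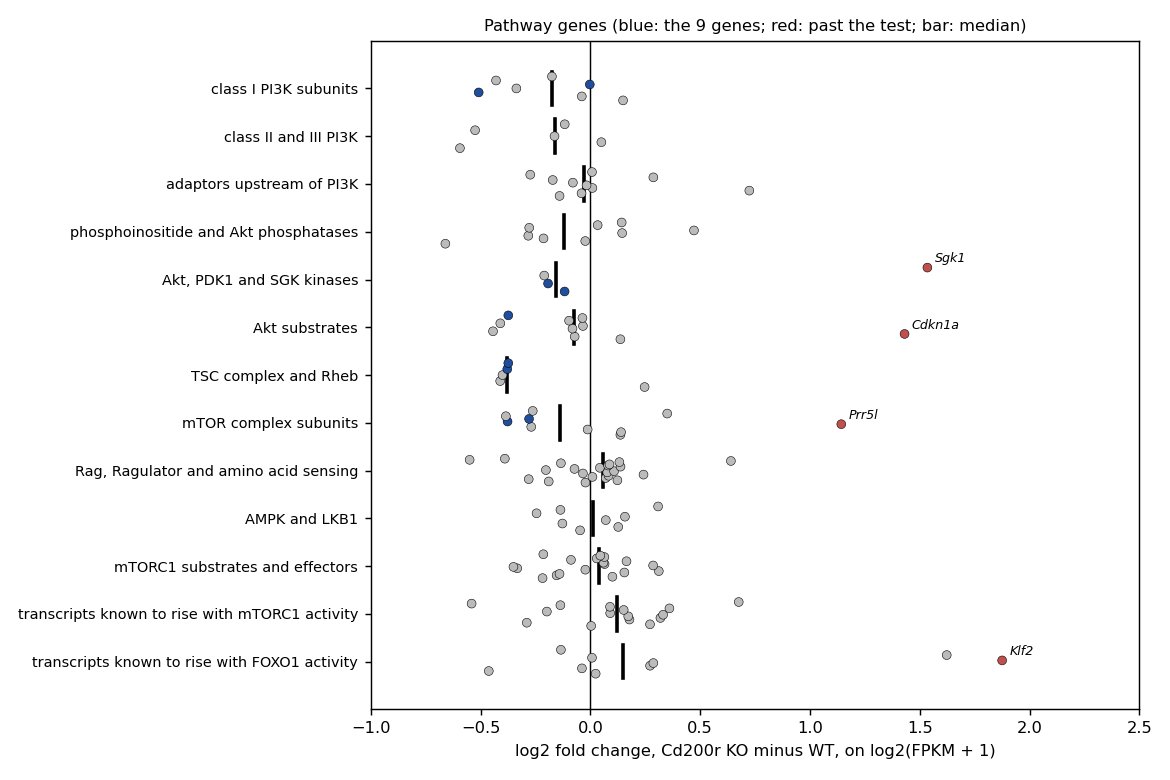
Log2 fold change (Cd200r knockout minus WT) of tested genes in 13 lists of the pathway and its transcript targets, with the list median as a black bar. The genes of interest (blue) lie at or below 0, and Sgk1, Cdkn1a, Prr5l and Klf2 (red), which passed the test, are higher in knockout; medians are over all tested genes of a list, and a few genes not reported here are not drawn.

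Transcripts known to follow the pathway's activity were examined beside its parts. Over all genes tested, 15.5% had an unadjusted p below 0.05. Of 16 tested transcripts known to rise with mTORC1 activity, 3 did, none passed and the median was 0.12. Leaving out either knockout library brought 1 of them past the test. They moved both ways. Srebf2 (−0.54, SE 0.23), a factor of sterol synthesis, was below 0, and Tfrc, the transferrin receptor (0.68, SE 0.27), and Psat1 of serine synthesis (0.33, SE 0.15) above it. Srebf2 measured 16.0 and 8.50 FPKM in knockout, against 17.4 and 17.5 FPKM in WT. It passed when its lower knockout library stood alone (−0.96, adjusted p = 0.00483), with the spread taken from the WT pair, whose values nearly coincide. Of 10 tested transcripts known to rise when FOXO1 is active, which Akt opposes, 2 rose, Klf2 among them, and 8 did not pass. Over all genes tested, 2.4% rose. The list's median was 0.15, with 7 above 0 and 3 below, the lowest being Ccr7 (−0.46, SE 0.39). Ccr7 measured 1.34 and 5.50 FPKM in knockout, against 5.04 and 3.78 FPKM in WT. Klf2, a factor of recirculating lymphocytes, measured 34.1 and 48.2 FPKM in knockout, against 10.2 and 10.5 FPKM in WT (1.87, SE 0.17, adjusted p = 2.25e-04). S1pr1, the receptor for egress from tissue, missed the threshold (1.62, SE 0.39, adjusted p = 0.052) but passed with the filter at 5 FPKM (adjusted p = 0.0312) and after the length adjustment (1.64, adjusted p = 0.0475). It also passed without knockout replicate 1 (2.23) or WT replicate 3 (2.10), where 1 group is a single library and the other gives the spread. Il7r had 0.27 (SE 0.14). Klf2 is also on the list of conventional NK markers, of which 9 of 11 tested rose, and the part of those cells in its value was not tested. Pik3ip1 had 0.0073 (SE 0.13) and Sesn1 −0.13 (SE 0.11).

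The pathway names in the deposited annotation cover a wider set. The annotation places all 9 genes in mTOR signalling and 8 of them in PI3K-Akt signalling. Of 93 tested genes annotated to mTOR signalling, 2 rose and 1 fell, or 3.23%, with a median of −0.01. They were Sgk1, Prr5l and Tnf (−0.85, SE 0.15), the last named after its value was seen. Of 151 tested genes annotated to PI3K-Akt signalling, 7 rose and 2 fell, or 5.96%, against 3.33% of all genes, with a median of −0.02. The risers were Sgk1, Cdkn1a, Nr4a1, Il4, Itgb5, Spp1 and the macrophage marker Csf1r (1.28, SE 0.23). Lpar6 (−0.61, SE 0.08) and F2r (−0.54, SE 0.11) fell. All but Sgk1 and Cdkn1a were named after their values were seen. Macrophage markers rose in the same libraries, and their part in this count was not tested.

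Pathway genes whose values ran most like the members were found by the Euclidean distance between centred log2(FPKM + 1) values over the 4 libraries, among up to 74 genes that averaged 5 FPKM or more. Pik3cd and Rictor were nearest to each other (0.133), and Rictor was also nearest to Tsc2 (0.0948). All of these were lowest in knockout replicate 2 and highest in WT replicate 1. Atg13, of the autophagy kinase complex, was nearest to both Rptor (0.0618) and Akt2 (0.0698), which were lowest in knockout replicate 1. Prkab1 was nearest to Akt1 (0.0176), Grb2 to Pik3r1 (0.0182), Telo2 to Tsc1 (0.118) and Tfe3 to Mtor (0.0821). With 4 libraries, these distances describe the values and carry no test.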

How the data were processed

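RNA was taken up in TRIzol, amplified by a kit for full-length mRNA of single cells and made into libraries by transposase, which keeps no strand, per the labels' protocols. The submitters' processing notes name fastp, HISAT2, HTSeq, DESeq2, R 3.2.0 and mm10 without saying what each was used for. The authors deposited FPKM, 1 column per library, and no counts.

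Of 18804 genes, the 9476 averaging 1 FPKM or more were fitted as log2(FPKM + 1) with limma 3.58.1 (two-sided, mean-variance trend, no covariate, R 4.3.3). P-values were adjusted by Benjamini-Hochberg over all of them at a threshold of 0.05. Each log2 fold change is the knockout mean minus the WT mean, and the pseudocount shrinks it in low genes. Ratios were compared by exact permutation. The fit was also run on simulated data drawn from its own variance model. These held no length trend and no mixture of cells, so the run says nothing about either. Replicates differed by a median of 1.13-fold (knockout) and 1.11-fold (WT).

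Depth was inferred as the read number at which low FPKM values of single-exon genes become whole. At that number 23.4% to 26.7% of 96 to 124 low values per library lay within 0.05 of a whole read, against 7.9% to 8.3% at a typical other number. The number was picked for having the highest share of all tried, so it had to exceed a typical one. Most low values were not whole at it, so depths and read numbers are approximate. Transcript lengths are of the longest coding GENCODE M21 transcript and were found for 95.5% of tested genes. Coordinates are RefSeq GRCm38.p6.

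The members and lists were chosen with earlier results of these data known. From each pathway or target list the text names every gene past the test and those with the smallest p, up to 4, with PI3K paralogs, Cd200r1 and, for each member, the nearest gene by distance. Mapkap1, Mlst8, Prr5, Deptor, Foxo1, Pik3ip1, Sesn1, Ccr7, Pkd1, Tnf, Csf1r, Nr4a1, Il4, Itgb5, Spp1, Lpar6, F2r, Cd3e, Cd3g, Tmem176b, Mmp9, Pecam1 and Fgb were named after their values were seen. A few genes that this rule selects are not reported here, though list counts and medians include them. Alternatives were another pseudocount (0.1 or 5), filter, scaling or variance model, each library left out, and an adjustment for transcript length added after the data were seen.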

Additional observations from a re-analysis of the deposited data

How the results depend on the processing

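The count of 316 genes past limma's test was 0 when all 18155 genes above 0 were tested (1898 had an unadjusted p below 0.05), 70 without the mean-variance trend, and 256 to 574 with a library left out, the highest without knockout replicate 1. No member passed in the alternatives in which it was tested, except that Pik3cd passed without knockout replicate 1. Mtor was tested only with no filter and as TPM, and Rptor, Tsc1 and Tsc2 were not tested with the filter at 5 FPKM. The count of members past the test was thus 0 to 1 with a library left out, when 1 group is a single library assumed to vary like the other. The 5 calls over the pathway and target lists became 0 with no filter (13 had an unadjusted p below 0.05), 3 with the filter at 5 FPKM, 3 without the trend, and 4 to 12 with a library left out, the highest again without knockout replicate 1. With the filter at 5 FPKM, Sgk1, Cdkn1a and Prr5l were no longer among the genes tested. Prr5l also missed the threshold without the trend (adjusted p = 0.0799) and with quantile normalization (0.0636), and Cd200r1 without the trend (0.108).

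With a library left out, the knockout minus WT difference in log2 ratio ran from −0.41 to 0.49 for Rictor to Rptor (0.04 in all libraries), from −0.29 to 0.11 for Akt2 to Akt1 (−0.09), from −0.68 to 0.52 for Tsc1 to Tsc2 (−0.08) and from 0.38 to 0.65 for Pik3r1 to Pik3cd (0.52). The log2 fold change of Pik3r1 (−0.00) turned with quantile normalization (0.012) and the length adjustment (0.10), and ran from −0.093 to 0.087 with a library left out. Others that were not called and turned ran from −0.36 to 0.014 (Pik3r5), −0.37 to 0.14 (Uvrag), −0.45 to 0.033 (Pdpk1) and −0.31 to 0.037 (Strada) with a library left out. The cause was not tested.

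No paired analysis was possible because the groups share only the replicate number 1. The interval of Tsc1, −0.89 to 0.13, shows what 2 libraries a group can resolve at low levels.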
